A study of Mus musculus with 6 samples.

Results

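The genes described here are 44 genes of DNA replication and mitosis, chosen by name, among 24083 genes in all. Of these, 26 act in S phase, when the genome is copied, and 18 act in mitosis, when the copies are separated. All 44 were in the table, and each had at least 9.97 FPKM in every library of either group, so a filter on low values removed none of them. The libraries were polyadenylated RNA of mouse embryonic stem cells, pluripotent cells derived from the early embryo. They were cultured on gelatin, with serum and with LIF, a cytokine that keeps them undifferentiated. The group with the R153A form of Nanog had 3 libraries, and the group with wild-type Nanog (WT) had 3. NANOG is a homeodomain protein that binds DNA and helps to hold cells in the pluripotent state. The sources used here do not say how the R153A change was made, whether the cells were a clone, or whether the 3 libraries of a group were separate cultures. The p-values therefore measure the spread between these libraries, which may be technical.

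Values are in FPKM, a read level corrected for gene length and library depth, so that levels of different genes can be set side by side per length. Library sums ran from 360152 to 382086 FPKM. Values written with ± are means and SDs over the 3 libraries of a group. No read counts were used, so the depth behind a value is unknown. The 12 embryonic stem cell markers examined all passed the expression filter, with 17.3 FPKM or more in every library. Their summed level was 2563 to 2679 FPKM in R153A and 4512 to 5295 FPKM in WT. A large part of each sum came from Dppa5a, at 936 ± 20.5 FPKM in R153A and 2575 ± 364 FPKM in WT. Of the 12, 8 fell in R153A (66.7%, against 22.3% of all genes tested) and 2 rose (16.7%, against 37.5%). Lin28a, which rose, had 99.03 ± 1.25 FPKM in R153A and 43.4 ± 2.90 FPKM in WT. The 12 feeder fibroblast markers summed to 27.03 to 28.8 FPKM in R153A and 20.3 to 21.6 FPKM in WT, most of it from Fbln1. Of these, 4 were tested and 3 rose (75.0%, against 37.5% of all genes tested). The risers besides Fbln1 were low. Col1a1 was at 2.82 ± 0.102 FPKM in R153A and 1.17 ± 0.258 FPKM in WT. Col1a2 was at 1.70 ± 0.199 FPKM in R153A and 0.707 ± 0.0448 FPKM in WT. The summed levels of 8 markers each were 2.897 to 3.03 FPKM in R153A and 3.36 to 3.87 FPKM in WT for neural genes, and 5.62 to 6.402 FPKM in R153A and 3.46 to 4.62 FPKM in WT for endoderm. They were 9.46 to 10.9 FPKM in R153A and 6.22 to 7.19 FPKM in WT for mesoderm. For trophectoderm they were 32.9 to 34.9 FPKM in R153A and 58.2 to 63.7 FPKM in WT, with Prl3d1 listed at 0 throughout. A large part of the trophectoderm sum came from Tfap2c, at a mean of 19.8 FPKM in R153A and 55.4 FPKM in WT. Of the 4 trophectoderm genes tested, Tfap2c and Eomes fell while Krt7 and Cdx2 rose. Krt7 had a mean of 7.61 FPKM in R153A and 1.197 FPKM in WT. Cdx2 had a mean of 2.78 FPKM in R153A and 0.117 FPKM in WT. Of 3 endoderm genes tested, Foxa2 rose and Sox7 fell, and of 3 mesoderm genes tested, T rose and Eomes fell. The part of these markers in the results below was not tested.

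Replication begins with licensing in late mitosis and G1, when the origin recognition complex, CDC6 and CDT1 load the ring-shaped MCM helicase onto DNA. In S phase CDC45 and the GINS complex join the MCM ring to form the active helicase, and the polymerases follow with the sliding clamp PCNA. In mitosis cyclin B with CDK1 drives entry, the Aurora and Polo-like kinases order chromosomes on the spindle, and the spindle checkpoint holds back the APC/C, the ubiquitin ligase that starts anaphase. Transcription of most S-phase genes is controlled by E2F factors under the retinoblastoma proteins, and that of most mitotic genes by the MuvB complex with B-MYB and FOXM1, which acts through the CHR promoter element, often beside CCAAT boxes bound by NF-Y. Embryonic stem cells are known for a short G1 phase and rapid division. In RNA from whole cultures, fewer cells in a phase and less of an RNA per cell cannot be told apart.

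Promoters of both classes are shown because their motif content differed between replication and mitotic members. Of the 44 members, 36 matched the RefSeq promoter table (build GRCm38.p6, which is not the mm9 build the submitters name). The others were Gmnn, Mcm4, Gins1, Gins2, Pole, Foxm1, Ccna2 and Aurkb. Below are the 250 bases before the annotated start of Rrm2, Cdk2 and Pola1, which fell in R153A, and of Cdc20 and Ccnb2, mitotic members that were not called. Sequences are written 5′ to 3′ on the strand of the gene, and capitals mark motif letters on either strand. The E2F letters searched were TTCCCGC as well as TTCGCGC, followed by TTGCCGC as well as TTGGCGC. The CHR letters were TTTGAA as well as TTCGAA, and the CCAAT box was searched by the letters of its name.
Rrm2: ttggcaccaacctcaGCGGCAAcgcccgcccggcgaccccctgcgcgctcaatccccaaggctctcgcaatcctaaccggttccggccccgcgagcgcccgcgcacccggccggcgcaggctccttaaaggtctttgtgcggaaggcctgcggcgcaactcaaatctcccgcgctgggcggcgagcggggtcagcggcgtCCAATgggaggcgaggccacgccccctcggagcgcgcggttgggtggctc
Cdk2: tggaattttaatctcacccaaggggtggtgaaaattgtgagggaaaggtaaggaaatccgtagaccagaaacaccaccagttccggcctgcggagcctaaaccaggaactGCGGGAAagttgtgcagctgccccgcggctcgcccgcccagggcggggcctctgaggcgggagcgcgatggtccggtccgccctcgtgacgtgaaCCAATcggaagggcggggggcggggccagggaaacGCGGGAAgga
Pola1: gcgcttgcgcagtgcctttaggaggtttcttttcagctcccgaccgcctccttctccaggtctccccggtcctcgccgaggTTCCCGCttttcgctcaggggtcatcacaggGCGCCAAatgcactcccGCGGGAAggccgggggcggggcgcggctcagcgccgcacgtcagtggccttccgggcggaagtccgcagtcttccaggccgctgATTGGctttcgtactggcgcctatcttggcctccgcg
Cdc20: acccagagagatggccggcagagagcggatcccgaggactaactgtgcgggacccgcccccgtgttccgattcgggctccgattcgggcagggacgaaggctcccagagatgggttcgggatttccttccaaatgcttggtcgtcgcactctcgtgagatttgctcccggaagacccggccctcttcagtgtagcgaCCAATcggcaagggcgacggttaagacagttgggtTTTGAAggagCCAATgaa
Ccnb2: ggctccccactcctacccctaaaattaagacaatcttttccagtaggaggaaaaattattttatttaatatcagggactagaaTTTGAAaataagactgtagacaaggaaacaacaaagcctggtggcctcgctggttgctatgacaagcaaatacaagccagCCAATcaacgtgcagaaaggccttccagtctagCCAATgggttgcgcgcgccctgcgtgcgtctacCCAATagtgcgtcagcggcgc
These stretches lie at chr12:24708004-24708253 (plus strand) for Rrm2, chr10:128705052-128705301 (minus strand) for Cdk2, chrX:93632156-93632405 (minus strand) for Pola1, chr4:118437344-118437593 (minus strand) for Cdc20 and chr9:70421555-70421804 (minus strand) for Ccnb2.

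The search covered windows of 250 bases before to 50 bases after each start, with Mcm7 having more than 1 window. E2F letters stood in 14 of 21 replication promoters (66.7%) and 3 of 15 mitotic promoters (20.0%), which were those of Ccnb1, Cdk1 and Mki67. The share was 9.57% of all 32851 windows and 20.7% of the 8762 tested genes with a window. CHR letters stood in 11 of 15 mitotic promoters (73.3%) and 4 of 21 replication promoters (19.0%), which were those of Mcm2, Mcm7, Cdc45 and Rfc3, against 19.2% of all windows and 15.6% of tested genes. CCAAT boxes were common to the classes, in 13 of 15 mitotic promoters (86.7%) and 15 of 21 replication promoters (71.4%), against 37.4% of all windows and 43.7% of tested genes. In the windows of the members, 3 matches overlapped a match to another motif. The replication members with E2F letters had a median log2 fold change of -0.16 (14 genes) and those without had 0.022 (7 genes). Over all tested genes the medians were 0.051 with E2F letters and 0.071 without. Split by the CCAAT box, the replication medians ran the other way, at -0.061 with it (15 genes) and -0.22 without (6 genes). By CHR letters they were -0.10 with (4 genes) and -0.12 without (17 genes). Among mitotic members the median was 0.045 with CHR letters (11 genes) and 0.16 without (4 genes). A match describes letters in a window and does not show that a factor binds there.

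Replication members were called lower in R153A in a larger share than genes at large, while 12 of 18 mitotic members did not pass the test. Of the 26 replication members, 11 fell, 4 rose and 11 did not pass, at an adjusted p under 0.05 from limma, a linear model of log2(FPKM + 1) over the 11817 genes with at least 1 FPKM in 3 or more libraries. The share that fell was 42.3%, against 22.3% of all genes tested, and the share that rose was 15.4%, against 37.5%. Here and below, all genes tested were not matched to the members for level, which was higher in the members. Of the 18 mitotic members, 6 rose (33.3%), 12 did not pass and none fell. No mitotic member was lower at an unadjusted limma p under 0.05 either. Counting either direction, 15 replication members (57.7%) and 6 mitotic members (33.3%) were called, against 59.8% of all genes. The changes were small, with none reaching the 2-fold change that 8.29% of all genes passed. The median size of the log2 fold change was 0.18 in replication members, 0.085 in mitotic members and 0.24 in all genes. The 3 R153A values lay wholly to one side of the 3 WT values in 16 replication and 10 mitotic members, and in 65.0% of all genes. All 3 R153A values lay below the WT values for 11 replication and 2 mitotic members (25.2% of all genes), and above them for 5 and 8 (39.8%).

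**Figure D1:**
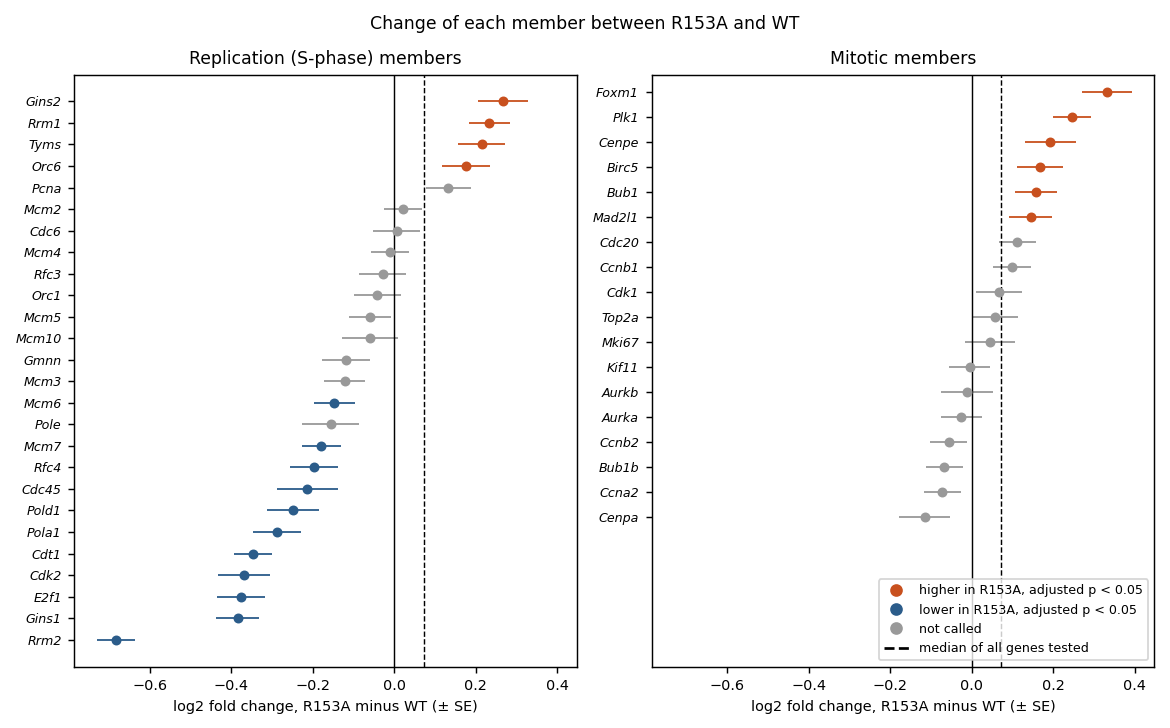
Log2 fold change (R153A minus WT, on the log2(FPKM + 1) scale) of the 26 replication members and the 18 mitotic members, each with its limma standard error. Colours mark calls at a limma adjusted p under 0.05, and the dashed line is the median of all genes tested (0.071). Rrm2 stands apart at -0.68, and no mitotic member was called lower.

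The median log2 fold change was -0.12 for the replication members and 0.062 for the mitotic members, beside 0.071 for all genes tested. Relative to the median of all genes, the replication members stood at -0.19 and the mitotic members at -0.0089. The first of these lay below 0 under all 17 alternatives (-0.21 to -0.10), and the second lay on either side of 0 (-0.0196 to 0.064). The mitotic median was negative under median-ratio scaling (-0.0205) and under a correction for GC content and length (-0.0352), which moved the median of all genes by -0.11 on the log2 scale. The other alternatives moved it by less than 0.1. Under median-ratio scaling 17 replication members fell and 3 rose, while 5 mitotic members fell and 2 rose, when 62.8% of all genes were called, 30.9% lower and 31.9% higher. Under the GC and length correction, 17 replication members fell and 4 rose, while 6 mitotic members fell and 2 rose, when 64.9% of all genes were called, 35.9% lower and 29.1% higher. The mitotic shares that fell were thus 27.8% and 33.3%, near those of all genes. Without R153A replicate 1 or R153A replicate 3 only 3 mitotic members rose, and without WT replicate 1 it was 2, with 1 lower.

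A scaling factor common to a library nearly cancels in the gap between the classes. The mean log2(FPKM + 1) over the 26 replication members was 5.33, 5.28 and 5.35 in the R153A libraries, against 5.39, 5.48 and 5.43 in the WT libraries. Over the 18 mitotic members it was 5.79, 5.77 and 5.82 in the R153A libraries, against 5.68, 5.76 and 5.74 in the WT libraries. The R153A libraries were thus the lower ones for replication members and the higher ones for mitotic members as deposited, with no overlap between groups. Replication minus mitotic gave -0.47, -0.49 and -0.48 in the R153A libraries, against -0.29, -0.28 and -0.31 in the WT libraries. The means were -0.48 ± 0.0128 in R153A and -0.29 ± 0.0165 in WT (SD, n = 3 each). In the WT group replicate 2 was the highest library for 13 of 26 replication and 9 of 18 mitotic members, and in the R153A group replicate 2 was the lowest for 18 of 26 and 10 of 18. The median-ratio scaling factors, taken over genes at large, had the same order. They were 1.034, 1.009 and 1.052 for R153A replicates 1 to 3 and 0.941, 0.998 and 0.980 for WT replicates 1 to 3. The difference of the class medians of log2 fold change was -0.18, with a range of -0.20 to -0.17 over the 17 processing alternatives. It was -0.13 without 6 members that act in more than 1 phase (Gmnn, E2f1, Cdk2, Ccna2, Foxm1 and Mki67), where the replication median was -0.061. The licensing genes Orc1, Orc6, Cdc6 and Cdt1 were kept there, although licensing precedes S phase.

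**Figure D2:**
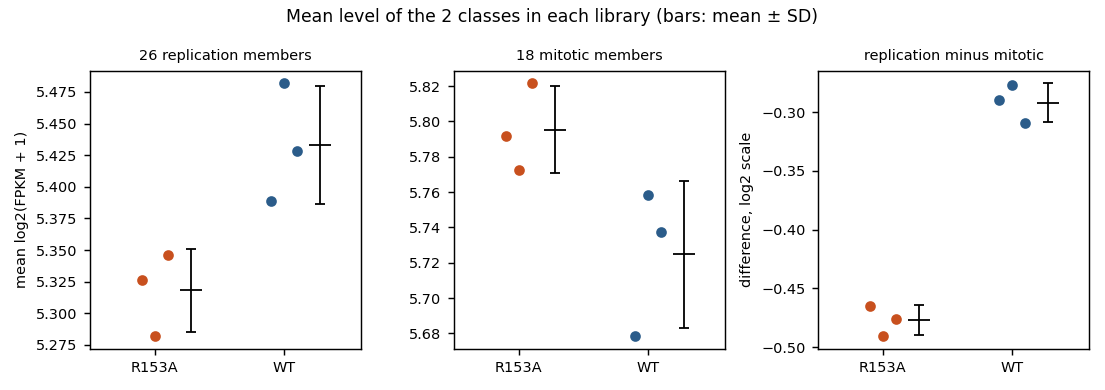
Mean log2(FPKM + 1) of the 26 replication members (left), of the 18 mitotic members (middle) and their difference (right) in each of the 3 R153A and 3 WT libraries, with the mean and SD of each group as bars. The axes do not start at 0. The difference lies near -0.48 in the R153A libraries and near -0.29 in the WT libraries.

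The other replication genes examined had a median close to that of the replication members, and the other mitotic genes a lower one than the mitotic members. Of 47 other replication genes, 21 fell (44.7%), 4 rose (8.51%) and 22 did not pass, with a median log2 fold change of -0.13. Pold2, an accessory subunit of polymerase delta, had 38.7, 39.05 and 37.4 FPKM in R153A, against 59.5, 62.7 and 63.5 FPKM in WT, a log2 fold change of -0.68 (limma, SE 0.0477 and adjusted p = 4.2e-07). Ticrr, a factor that helps load CDC45, had 10.3, 10.3 and 11.1 FPKM in R153A, against 16.2, 19.4 and 15.4 FPKM in WT, a log2 fold change of -0.64 (limma adjusted p = 4.4e-05). Their groups did not overlap, and the same held for Dna2, a nuclease-helicase of Okazaki fragments (7.67 ± 0.625 FPKM in R153A and 11.3 ± 0.417 FPKM in WT), and Rnaseh2a, the catalytic subunit of RNase H2 (22.9 ± 1.72 FPKM in R153A and 30.9 ± 2.06 FPKM in WT). Of 92 other mitotic genes, 34 fell (37.0%), 18 rose (19.6%) and 40 did not pass, with a median of -0.081. Over all genes tested 22.3% fell and 37.5% rose, so both wider lists fell in a larger share and rose in a smaller one. Relative to the median of all genes, the other replication genes stood at -0.20 and the other mitotic genes at -0.15. The kinetochore gene Spc24 was at 30.9 ± 0.959 FPKM in R153A and 50.5 ± 4.35 FPKM in WT, the centromere gene Cenpm at 14.4 ± 0.695 FPKM in R153A and 23.3 ± 1.36 FPKM in WT and Cdca3, a cofactor of mitotic entry, at 40.5 ± 1.79 FPKM in R153A and 61.96 ± 5.501 FPKM in WT, and all 3 fell. Gtse1, a microtubule-associated protein of G2 and mitosis, rose, with 52.0 ± 1.38 FPKM in R153A and 36.1 ± 2.001 FPKM in WT. The gap between the medians of these wider lists was -0.045 (-0.063 to -0.025 over the alternatives) and that between the 26 and the 18 members -0.18. The log2 fold change was negative in 7 of the 18 mitotic members and in 60 of the 92 other mitotic genes.

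**Figure D3:**
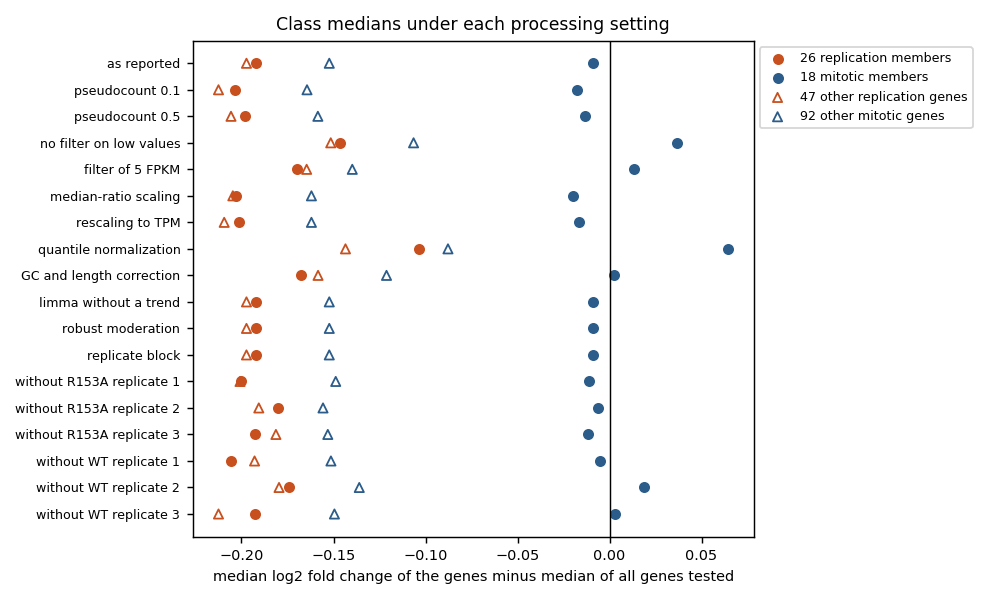
Median log2 fold change (R153A minus WT) of the replication members, the mitotic members and the 2 wider lists, each minus the median of all genes tested, for the values as reported and under 17 alternatives. Replication members and both wider lists lie below 0 in every row, and the mitotic members lie between -0.0196 and 0.064.

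Levels of the members ranged over more than an order of magnitude within each library. The median member averaged 40.7 FPKM, against 8.58 FPKM for the median gene tested, with a median of 35.1 FPKM in the replication class and 53.8 FPKM in the mitotic class. Cdc20, the APC/C activator, was the most abundant, at 324, 323 and 331 FPKM in the R153A libraries, against 290.0, 306 and 309 FPKM in the WT libraries. Foxm1, Tyms and Cdc6 were the least abundant of their classes, each under 14 FPKM in every library. The median residual SD of the members between libraries of a group was 0.059 on the log2 scale, against 0.083 for all genes. The 2 sets were not matched for level, so the lower SD cannot be told apart from the higher level of the members.

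**Figure D4:**
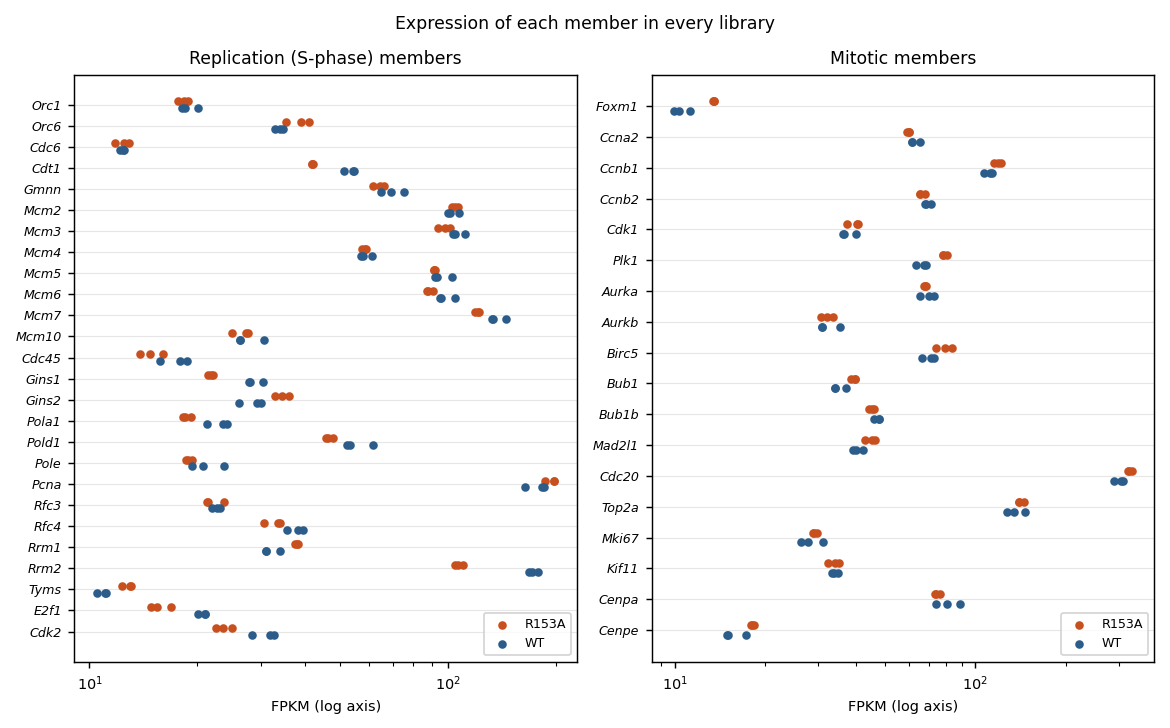
FPKM (log axis) of each of the 26 replication members (left) and 18 mitotic members (right) in the 3 R153A and the 3 WT libraries. Each point is a library. Of the replication members, 11 lie lower in R153A with no overlap, among them Rrm2, Gins1, Cdt1, Pola1, E2f1 and Cdk2. Another 5 lie higher, among them Gins2, Rrm1 and Tyms. Of the mitotic members, 8 lie higher with no overlap, among them Foxm1 and Plk1, and 2 lie lower, Ccna2 and Bub1b. Over all genes tested, 25.2% lie lower and 39.8% higher in this way.

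Among the licensing genes 1 of 5 fell (20.0%, against 22.3% of all genes) and 1 rose (20.0%, against 37.5%). Cdt1, which brings the MCM ring to origins, had 41.7, 41.7 and 42.05 FPKM in the R153A libraries, against 51.3, 54.4 and 54.6 FPKM in the WT libraries. All R153A values lay below the WT values, a mean 1.28-fold lower (log2 fold change -0.35, limma SE 0.0467, adjusted p = 7.3e-05). Its inhibitor geminin, encoded by Gmnn, had 64.6, 61.7 and 66.5 FPKM in the R153A libraries, against 65.03, 69.4 and 75.5 FPKM in the WT libraries, and the groups overlapped (log2 fold change -0.12, limma SE 0.0595, adjusted p = 0.105). Gmnn was called lower under median-ratio scaling, rescaling to TPM and the GC and length correction, and without WT replicate 1 (limma adjusted p between 0.00501 and 0.0328). The ratio of Cdt1 to Gmnn FPKM was 0.651 ± 0.0218 in R153A and 0.765 ± 0.0362 in WT (SD, n = 3 each), with no overlap. Orc6, a subunit of the origin recognition complex, moved the other way, with 38.8, 35.4 and 40.96 FPKM in the R153A libraries, against 33.9, 32.9 and 34.7 FPKM in the WT libraries. All its R153A values lay above the WT values. It rose by 0.18 on the log2 scale (SE 0.0589, limma adjusted p = 0.0236), a call that ended under median-ratio scaling, with no filter on low values and without R153A replicate 1, R153A replicate 3, WT replicate 1 or WT replicate 2 (limma adjusted p between 0.051 and 0.143). Orc1, the large ATPase subunit of the same complex, stood at 18.3 ± 0.615 FPKM in R153A and 18.9 ± 1.04 FPKM in WT, and was called lower under median-ratio scaling alone (limma adjusted p = 0.047, range 0.047 to 0.999 over the alternatives). Cdc6, the ATPase that loads MCM with CDT1, stood at 12.4 ± 0.558 FPKM in R153A and 12.3 ± 0.188 FPKM in WT.

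The 6 MCM helicase genes changed little, and unequally. Their summed level was 565, 553 and 567 FPKM in the R153A libraries, against 583, 632 and 584 FPKM in the WT libraries, lower in every R153A library. Mcm7 was the most abundant and fell most, with 122, 119 and 122 FPKM in the R153A libraries, against 133, 145 and 134 FPKM in the WT libraries. Its log2 fold change was -0.18 (limma, SE 0.0483 and adjusted p = 0.00788). Mcm6 had 87.3, 88.2 and 90.5 FPKM in the R153A libraries, against 95.4, 105 and 95.2 FPKM in the WT libraries, and the groups did not overlap. It fell by 0.15 on the log2 scale (SE 0.0505, limma adjusted p = 0.0262), but the call ended without R153A replicate 1, R153A replicate 2 or WT replicate 2 and in limma without a trend (limma adjusted p between 0.0536 and 0.0919). Mcm3 lay below WT in every R153A library, at 101, 93.8 and 98.1 FPKM in R153A, against 103, 112 and 104 FPKM in WT, but did not pass (limma adjusted p = 0.058). It was called lower under all 4 scaling alternatives. Mcm2 averaged 104 ± 2.12 FPKM in R153A and 103 ± 3.95 FPKM in WT, and Mcm4 averaged 58.4 ± 0.649 FPKM in R153A and 58.8 ± 2.11 FPKM in WT. Mcm5 averaged 91.7 ± 0.286 FPKM in R153A and 95.8 ± 5.697 FPKM in WT, and the groups overlapped for all 3. Mcm5 was called lower under median-ratio scaling and the GC and length correction, and Mcm4 under the GC and length correction alone. The 6 subunits form the ring in equal numbers. In every library Mcm7 was the highest of the 6 and Mcm4 the lowest. Mcm7 exceeded Mcm4 2.07, 2.07 and 2.08-fold in the R153A libraries, against 2.29, 2.36 and 2.33-fold in the WT libraries. That ratio rests on Mcm7 and Mcm4 alone and does not describe the other subunits.

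The genes that activate the helicase divided, and the GINS pair moved in opposite directions. Gins1 had 22.1, 21.9 and 21.4 FPKM in the R153A libraries, against 28.01, 27.9 and 30.4 FPKM in the WT libraries, a 1.32-fold lower mean. Gins2, which encodes another subunit of the same 4-part complex, had 34.4, 32.9 and 35.98 FPKM in the R153A libraries, against 26.1, 29.3 and 30.1 FPKM in the WT libraries, a 1.21-fold higher mean. In WT the pair stood at nearly equal FPKM, and in R153A Gins2 exceeded Gins1 in every library. The log2 fold changes were -0.39 (limma, SE 0.0527 and adjusted p = 8.2e-05) for Gins1 and 0.27 (limma, SE 0.0623 and adjusted p = 0.00345) for Gins2, and both calls held under all 17 alternatives. The ratio of Gins1 to Gins2 was 0.633 ± 0.0358 in R153A and 1.01 ± 0.0592 in WT (SD, n = 3 each). Cdc45 had 14.8, 13.9 and 16.1 FPKM in the R153A libraries, against 15.7, 17.9 and 18.7 FPKM in the WT libraries, with overlapping groups. It fell by 0.21 on the log2 scale (SE 0.0751, limma adjusted p = 0.0294), and the call ended with no filter on low values and without R153A replicate 1, R153A replicate 2, WT replicate 2 or WT replicate 3 (limma adjusted p between 0.0727 and 0.109). Mcm10, a scaffold that helps fire origins, stood at 26.6 ± 1.45 FPKM in R153A and 27.8 ± 2.54 FPKM in WT and did not pass, though it was called lower under median-ratio scaling and the GC and length correction.

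Polymerase subunits Pola1 and Pold1 fell, while the clamp gene did not pass. Pola1, the primase-coupled polymerase alpha that starts each strand, had 18.5, 18.2 and 19.2 FPKM in the R153A libraries, against 23.6, 24.2 and 21.3 FPKM in the WT libraries. The groups were apart, with a log2 fold change of -0.29 (limma, SE 0.0595 and adjusted p = 0.00155). Pold1, polymerase delta of the lagging strand, had 45.8, 47.9 and 46.2 FPKM in the R153A libraries, against 52.1, 61.9 and 53.4 FPKM in the WT libraries, also apart, with a log2 fold change of -0.25 (limma, SE 0.0641 and adjusted p = 0.00602). Pole, polymerase epsilon of the leading strand, had 19.3, 18.6 and 18.8 FPKM in R153A, against 20.8, 23.6 and 19.3 FPKM in WT, with overlapping groups, and did not pass (limma adjusted p = 0.0759). It was called lower under median-ratio scaling, quantile normalization and the GC and length correction, and without WT replicate 3 (limma adjusted p between 3.8e-04 and 0.021). Pcna, the most abundant replication member in R153A, was nominally higher, at 198, 187 and 198 FPKM in the R153A libraries, against 164, 185 and 183 FPKM in the WT libraries. It did not pass (log2 fold change 0.13, limma SE 0.0558, adjusted p = 0.0616), and was called higher under quantile normalization and without WT replicate 2 or WT replicate 3 (limma adjusted p between 0.0107 and 0.0399). Of the clamp loader subunits, Rfc4 had 30.6, 34.0 and 33.5 FPKM in the R153A libraries, against 39.3, 38.2 and 35.5 FPKM in the WT libraries, and fell, with a log2 fold change of -0.20 (limma, SE 0.0587 and adjusted p = 0.0131). That call ended without R153A replicate 1 or WT replicate 1 (limma adjusted p between 0.051 and 0.0717). Rfc3 stood at 22.1 ± 1.38 FPKM in R153A and 22.6 ± 0.584 FPKM in WT and was not called under any alternative.

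The genes of deoxynucleotide supply held the largest change of all 44 members. Rrm2, the small and cell-cycle-limited subunit of ribonucleotide reductase, had 106, 104 and 110.3 FPKM in the R153A libraries, against 168, 171 and 178 FPKM in the WT libraries. Each R153A library lay under every WT library, and the mean was 1.61-fold lower (log2 fold change -0.68, limma SE 0.0461, adjusted p = 3.0e-07). Its partner Rrm1, the large subunit with the catalytic site, had 38.2, 37.95 and 37.3 FPKM in the R153A libraries, against 31.1, 33.9 and 31.2 FPKM in the WT libraries, higher in every R153A library. Rrm1 rose, with a log2 fold change of 0.23 (limma, SE 0.0508 and adjusted p = 0.0022). Tyms, thymidylate synthase, rose as well, with 13.01, 12.3 and 13.1 FPKM in the R153A libraries, against 10.5, 11.03 and 11.1 FPKM in the WT libraries (log2 fold change 0.21, limma SE 0.0571, adjusted p = 0.0075), with no overlap between groups. The ratio of Rrm2 to Rrm1 FPKM was 2.83 ± 0.111 in R153A and 5.39 ± 0.3297 in WT (SD, n = 3 each), lower in every R153A library. All 3 calls held under every alternative.

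**Figure D5:**
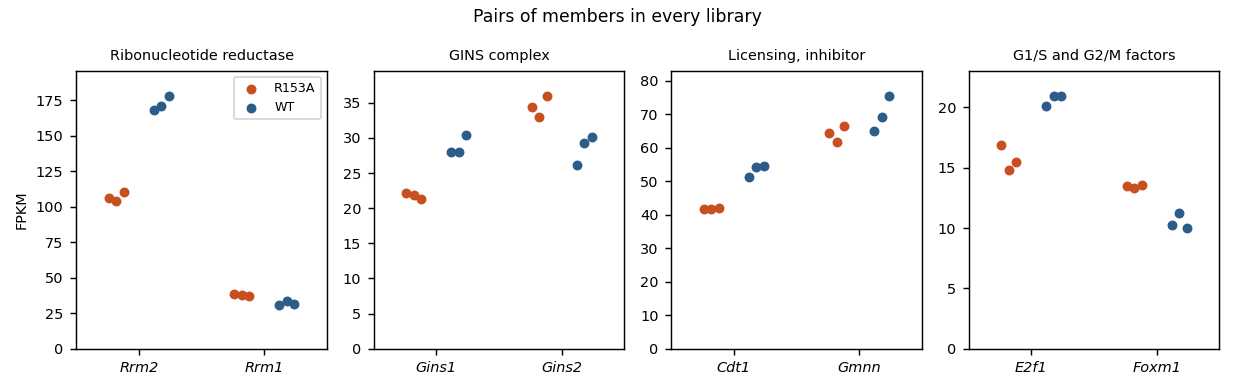
FPKM in each R153A and WT library for 4 pairs of members: the ribonucleotide reductase subunits Rrm2 and Rrm1, the GINS subunits Gins1 and Gins2, the licensing factor Cdt1 and its inhibitor Gmnn, and the transcription factors E2f1 and Foxm1. Axes start at 0. Rrm2, Gins1, Cdt1 and E2f1 are lower in R153A, while Rrm1, Gins2 and Foxm1 are higher.

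The regulators of S-phase entry both fell. E2f1, an activating E2F factor, had 16.9, 14.8 and 15.4 FPKM in the R153A libraries, against 20.1, 20.9 and 20.9 FPKM in the WT libraries, a 1.32-fold lower mean. Cdk2, the kinase of cyclins E and A, had 23.6, 22.5 and 24.9 FPKM in the R153A libraries, against 28.3, 31.8 and 32.6 FPKM in the WT libraries, a 1.31-fold lower mean. Their groups did not overlap. The log2 fold changes were -0.38 (limma, SE 0.0598 and adjusted p = 2.5e-04) for E2f1 and -0.37 (limma, SE 0.06398 and adjusted p = 4.6e-04) for Cdk2, and both held under every alternative. Foxm1, the forkhead factor of mitotic genes, moved the other way, with 13.4, 13.3 and 13.5 FPKM in the R153A libraries, against 10.3, 11.2 and 9.97 FPKM in the WT libraries and a log2 fold change of 0.33 (limma, SE 0.0603 and adjusted p = 6.5e-04). The ratio of E2f1 to Foxm1 FPKM was 1.17 ± 0.0782 in R153A and 1.98 ± 0.118 in WT (SD, n = 3 each).

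Of 18 other E2F, retinoblastoma and MuvB genes, 6 fell (33.3%, against 22.3% of all genes), 3 rose (16.7%, against 37.5%) and 9 did not pass. Mybl2, which encodes B-MYB, the MuvB partner that precedes FOXM1, had 78.3, 78.98 and 78.9 FPKM in the R153A libraries, against 184, 199.9 and 199 FPKM in the WT libraries. The R153A mean was 2.47-fold lower (log2 fold change -1.29, limma SE 0.0479, adjusted p = 3.3e-09), further than any of the 44 members moved. E2f8, a repressive E2F, fell to 6.996 ± 0.631 FPKM in R153A, against 13.97 ± 0.724 FPKM in WT. E2f2, an activating one, fell to 1.14 ± 0.161 FPKM in R153A, against 2.26 ± 0.141 FPKM in WT. E2f6, a repressor of the Polycomb type, rose, with 16.4 ± 1.13 FPKM in R153A and 10.8 ± 0.885 FPKM in WT. Mybl2 and Foxm1, which serve the same promoters in turn, thus stood at a ratio of 5.86 ± 0.0524 in R153A and 18.5 ± 1.23 in WT (SD, n = 3 each).

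Besides Foxm1, none of the mitotic regulators was called as deposited. Cdk1 had 40.7, 37.4 and 40.4 FPKM in the R153A libraries, against 36.2, 36.6 and 40.2 FPKM in the WT libraries, with overlapping groups and a log2 fold change of 0.07 (limma, SE 0.0571 and adjusted p = 0.334). Its cyclin gene Ccnb1 had 115, 119 and 122 FPKM in the R153A libraries, against 107, 113 and 112 FPKM in the WT libraries, higher in every R153A library, but did not pass (log2 fold change 0.10, limma SE 0.0464, adjusted p = 0.0888). Neither was called under any alternative. Ccnb2, the cyclin of the Golgi pool, and Ccna2, the cyclin of S phase and early mitosis, stood at 66.5 ± 1.41 FPKM in R153A and 69.2 ± 1.66 FPKM in WT for Ccnb2, and at 59.9 ± 0.413 FPKM in R153A and 63.01 ± 2.23 FPKM in WT for Ccna2. The first overlapped between groups, the other lay below WT in every R153A library, and both were called lower under median-ratio scaling and the GC and length correction. The ratio of Ccnb1 to Cdk1 FPKM was 3.01 ± 0.173 in R153A and 2.94 ± 0.157 in WT (SD, n = 3 each) and the groups overlapped.

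Of the mitotic kinases and the chromosomal passenger complex, 2 of 4 rose, where 37.5% of all genes tested rose. Plk1, the Polo-like kinase, had 78.02, 78.03 and 80.5 FPKM in the R153A libraries, against 63.4, 68.4 and 67.2 FPKM in the WT libraries, and its groups did not overlap. Its log2 fold change of 0.25 (limma, SE 0.0473 and adjusted p = 9.4e-04) held under every alternative. Birc5, which encodes the passenger subunit survivin, had 79.2, 73.9 and 83.6 FPKM in the R153A libraries, against 66.5, 70.99 and 72.8 FPKM in the WT libraries (log2 fold change 0.17, limma SE 0.0571, adjusted p = 0.0259). The Birc5 call ended under median-ratio scaling, the GC and length correction, no filter on low values and limma without a trend, and without R153A replicate 1, R153A replicate 3 or WT replicate 1 (limma adjusted p between 0.0573 and 0.122). Aurkb, the kinase of the same complex, stood at 32.1 ± 1.397 FPKM in R153A and 32.4 ± 2.69 FPKM in WT and was called nowhere. Aurka, the kinase of spindle poles, stood at 68.05 ± 0.489 FPKM in R153A and 69.4 ± 3.79 FPKM in WT and was called lower under median-ratio scaling and the GC and length correction.

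In the spindle checkpoint, Bub1 and Mad2l1 rose slightly. Bub1, a kinase that recruits the checkpoint to kinetochores, had 38.4, 39.8 and 39.8 FPKM in the R153A libraries, against 34.2, 37.2 and 34.2 FPKM in the WT libraries. Mad2l1, whose product MAD2 sequesters CDC20, had 45.4, 42.9 and 46.5 FPKM in the R153A libraries, against 39.03, 40.2 and 42.4 FPKM in the WT libraries. For both, every R153A value lay above every WT value, and the log2 fold changes were 0.16 (limma, SE 0.0512 and adjusted p = 0.0203) for Bub1 and 0.14 (limma, SE 0.0526 and adjusted p = 0.0344) for Mad2l1. Both calls ended under median-ratio scaling and the GC and length correction. The Bub1 call also ended without R153A replicate 2, R153A replicate 3, WT replicate 1 or WT replicate 3 (limma adjusted p between 0.057 and 0.0705), and the Mad2l1 call in limma without a trend and without R153A replicate 1, R153A replicate 3, WT replicate 1 or WT replicate 2 (limma adjusted p between 0.0624 and 0.135). Bub1b, which encodes the checkpoint protein BUBR1, lay below WT in every R153A library, with 45.2, 46.03 and 44.1 FPKM in R153A, against 46.2, 47.9 and 47.9 FPKM in WT. It did not pass (limma adjusted p = 0.228), but was called lower under median-ratio scaling and the GC and length correction. Cdc20, given above, lay higher in every R153A library and did not pass (log2 fold change 0.11, limma SE 0.0461, adjusted p = 0.0559), although it was called higher without WT replicate 2 or WT replicate 3 (limma adjusted p between 0.0251 and 0.0463). The ratio of Cdc20 to Mad2l1 FPKM was 7.26 ± 0.235 in R153A and 7.44 ± 0.163 in WT (SD, n = 3 each), with overlap.

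Among genes of the chromosomes and the spindle, 1 of 5 was called (20.0%, against 59.8% of all genes). Cenpe, a kinetochore motor, had 18.03, 18.3 and 17.9 FPKM in the R153A libraries, against 14.97, 17.2 and 15.1 FPKM in the WT libraries, and rose by 0.19 on the log2 scale (SE 0.0624, limma adjusted p = 0.0204). Its groups did not overlap. The call ended under median-ratio scaling and the GC and length correction, and without R153A replicate 1, R153A replicate 2, WT replicate 1 or WT replicate 3 (limma adjusted p between 0.0543 and 0.202). Mki67, the proliferation marker that coats mitotic chromosomes, had 28.9, 29.1 and 29.7 FPKM in the R153A libraries, against 27.8, 31.02 and 26.3 FPKM in the WT libraries, and the groups overlapped. Its log2 fold change was 0.04 (limma, SE 0.0616 and adjusted p = 0.551), and it was called lower under the GC and length correction alone (limma adjusted p = 0.0198, range 0.0198 to 0.976 over the alternatives). Top2a, the topoisomerase that untangles sister chromatids, had 139.9, 139.6 and 145 FPKM in the R153A libraries, against 134, 146 and 128 FPKM in the WT libraries, also overlapping (log2 fold change 0.06, limma SE 0.05501, adjusted p = 0.388). Kif11, the motor that separates spindle poles, stood at 33.9 ± 1.37 FPKM in R153A and 33.97 ± 0.799 FPKM in WT. Cenpa, the centromeric histone H3 variant, stood at 74.5 ± 1.69 FPKM in R153A and 81.03 ± 7.41 FPKM in WT. It did not pass as deposited and was called lower under median-ratio scaling, rescaling to TPM and the GC and length correction, and without WT replicate 1 (limma adjusted p between 0.00863 and 0.035).

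Some members share exonic bases with another annotated gene, so that their values are uncertain where counting did not use strand, which is not given in the sources used here. In GENCODE M21 (GRCm38) this held for 11 of the 44, namely Orc1, Orc6, Mcm7, Cdc45, Gins2, Pole, Rfc4, Foxm1, Ccna2, Plk1 and Cdc20. Foxm1 shares bases with genes on its own strand, where a count by strand would not separate them. Of these, Gm44596 was not listed. Tex52, listed as 4933413G19Rik, had 0.900, 0.767 and 0.766 FPKM in R153A, against 0.755, 0.736 and 0.637 FPKM in WT. A pseudogene named after Tyms is also in the table, so the Tyms values may share reads with it. The opposite-strand neighbour Gse1 of Gins2 had 25.1, 22.03 and 24.8 FPKM in R153A, against 16.3, 17.4 and 15.2 FPKM in WT, higher like Gins2. Eif4a2, opposite Rfc4, had 138, 125 and 142 FPKM in R153A, against 194, 187 and 249 FPKM in WT, lower like Rfc4. Elovl1, opposite Cdc20, had 15.7, 17.5 and 17.1 FPKM in R153A, against 8.21, 9.19 and 9.35 FPKM in WT, higher in every R153A library. The neighbours of Mcm7, which fell, were Ap4m1, which fell too (log2 fold change -0.58, limma adjusted p = 1.7e-04), and Cops6, which rose (0.11, adjusted p = 0.0486). Vps35 beside Orc6, Ufd1l beside Cdc45 and Exosc9 beside Ccna2 did not pass, with log2 fold changes of 0.11, -0.06 and 0.07 (limma adjusted p = 0.067, 0.408 and 0.234). The part of shared reads in the values of these members was not tested.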

How the data were processed

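RNA-seq libraries of mouse embryonic stem cells were compared, 3 with R153A and 3 with wild-type Nanog. The FPKM table deposited by the authors lists gene symbols against the 6 libraries and was used unchanged. The submitters' processing notes name HTSeq 0.11.2, SAMtools 1.9, edgeR 3.26.8, Bowtie2 2.3.4.3 and the mm9 build without roles. Which tool made the FPKM values, from which annotation and with what use of strand is not given in the sources used here. FPKM hold no counts, so no count test was run.

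Genes of at least 1 FPKM in 3 or more of the 6 libraries (11817) were tested as log2(FPKM + 1) in limma 3.58.1 (R 4.3.3), with trended moderation. Tests were 2-sided, p-values were adjusted by the Benjamini-Hochberg method across these genes, and calls required an adjusted p under 0.05. The fit was tested on simulated data. Group values are mean ± SD over 3 libraries. Medians of gene lists are descriptions and carry no test.

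The members and the gene lists were chosen with earlier results of these data known. All 44 members are named, and of each other list up to 4 called genes with the largest change. The pairs given as ratios, the overlapping neighbours and the printed promoters were picked once their values had been seen. The listed symbol Mlf1ip was found as Cenpu through RefSeq synonyms. Alternatives were pseudocounts of 0.1 and 0.5, no filter or a filter of 5 FPKM, scaling by median ratios, to TPM or by quantiles, a loess correction for GC content and length (span 0.5, GENCODE M21 transcripts, values for 99.4% of tested genes), limma without a trend or with robust moderation, a replicate block, each library left out, and 6 members that act in more than 1 phase left out. Python 3.11.15 with matplotlib 3.10.9 drew the figures.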

Additional observations from a re-analysis of the deposited data

How the results depend on the processing

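The alternatives changed how many members were called more than which class lay lower. Of 748 single-gene values under the 17 alternatives, 643 kept their direction and their side of the threshold, 43 lost a call, 35 gained one and 27 changed sign. The 27 belonged to genes that were not called as deposited. Under a filter of 5 FPKM, 2901 genes were called higher, and 4211 were called lower under the GC and length correction, where 4428 and 2634 were called as deposited. The filter of 5 FPKM leaves fewer genes to test, so 2901 and 4428 are counts over unlike sets. The GC and length correction tested 11746 genes, against 11817 as deposited. Replication members called lower numbered 17 under median-ratio scaling and 17 under the GC and length correction (11 as deposited), with medians of -0.20 and -0.21 (-0.12 as deposited). Mitotic members called higher numbered 2 under each of these, and those called lower 5 and 6 (27.8% and 33.3%, against 30.9% and 35.9% of all genes), with medians of -0.0205 and -0.0352 (0.062 as deposited). Rescaling to TPM gave 1 mitotic member called lower. The difference of the class medians was -0.17 under quantile normalization and -0.13 without the 6 members of more than 1 phase, where the replication median was -0.061. Leaving out each library in turn gave 2 to 6 mitotic members called higher, 0 to 1 called lower, a mitotic median of 0.045 to 0.11, 8 to 11 replication members called lower, a replication median of -0.16 to -0.083 and a difference of -0.20 to -0.17. Log2 fold changes that changed sign were as follows. Under median-ratio scaling the values were Cdc6 -0.0729, Mcm2 -0.0615, Cdk1 -0.0151, Top2a -0.0259 and Mki67 -0.0365. Under rescaling to TPM the values were Cdc6 -0.0184 and Mcm2 -0.0022. Under quantile normalization the values were Cdc6 -0.0782 and Mki67 -0.0021. Under GC and length correction the values were Cdc6 -0.12, Mcm2 -0.0785, Cdk1 -0.0312, Cdc20 -0.0282, Top2a -0.0391 and Mki67 -0.14. Leaving out each library in turn gave Orc1 -0.0705 to 0.0001, Cdc6 -0.0212 to 0.0381, Mcm4 -0.0293 to 0.0179, Mcm10 -0.0966 to 0.0111, Aurka -0.0687 to 0.0081, Aurkb -0.0449 to 0.0546, Mki67 -0.0054 to 0.11 and Kif11 -0.0291 to 0.0268. The causes were not tested. No pairing of libraries between groups by the numbers 1 to 3 was seen. Same-numbered libraries correlated in their deviations at -0.0487, -0.0095 and 0.06, and different-numbered ones at -0.0539 to 0.0771. These values cannot show whether same-numbered libraries were prepared together. With the replicate block 4316 genes were called higher and 2560 lower. Called higher and lower were 4 and 11 replication members and 6 and 0 mitotic members. The medians were -0.12 and 0.062, and their difference -0.18. With unknown depth, no counting error can be given.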

Other observations

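Among the G1 cyclins, cyclin-dependent kinases and their inhibitors, 4 genes passed a 2-fold change, which none of the members did. The list gave 7 higher, 3 lower and 4 uncalled genes of 14, against 37.5% higher and 22.3% lower over all genes. Cdkn1a, which encodes the inhibitor p21 of CDK2 and also binds PCNA, had 75.1, 75.5 and 75.99 FPKM in the R153A libraries, against 19.3, 20.6 and 20.1 FPKM in the WT libraries, a 3.78-fold higher mean, with a log2 fold change of 1.87 (limma, SE 0.0466 and adjusted p = 3.2e-10). Ccnd3, cyclin D3, had 84.4, 84.5 and 82.1 FPKM in the R153A libraries, against 221, 237 and 236 FPKM in the WT libraries, a 2.77-fold lower mean (log2 fold change -1.46, limma SE 0.0467, adjusted p = 1.3e-09). Cdk6, a kinase of the D cyclins, rose, with 4.15 ± 0.216 FPKM in R153A and 1.21 ± 0.184 FPKM in WT, and so did Cdkn1c, which encodes the inhibitor p57, with 6.495 ± 0.609 FPKM in R153A and 2.51 ± 0.317 FPKM in WT (SD, n = 3 each). The groups did not overlap in any of these 4 genes, and the calls held under every alternative that tested them.

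In cohesin, the ring that holds sister chromatids between replication and anaphase, 4 of 10 genes fell (40.0%, against 22.3% of all genes) and 2 rose (20.0%, against 37.5%). The share called either way was 60.0%, against 59.8% of all genes. The core subunits Smc1a, Smc3 and Rad21 fell. Smc1a was at 55.9 ± 1.34 FPKM in R153A and 67.6 ± 5.34 FPKM in WT, Smc3 at 48.9 ± 1.74 FPKM in R153A and 58.6 ± 3.43 FPKM in WT, and Rad21 at 63.6 ± 0.613 FPKM in R153A and 72.7 ± 1.599 FPKM in WT. Stag2, an accessory subunit, rose, with 25.3, 29.4 and 31.6 FPKM in the R153A libraries, against 14.3, 16.6 and 15.7 FPKM in the WT libraries and a log2 fold change of 0.84 (limma, SE 0.0809 and adjusted p = 4.8e-06). The log2 falls of the core subunits lay between 0.19 and 0.27 on the log2 scale. For these 4 genes the groups did not overlap.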
